A study of Mus musculus with 21 samples.

Results

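The regions described here are 831 H3K4me3 peaks of cycling C2C12 myoblasts that lie more than 10 kb from every annotated gene. They were chosen from the 23663 peaks of the authors' list that combines the cycling replicates, called the pooled list below. Of these, 1700 lay more than 10 kb from the nearest base of any gene of GRCm38, 1030 of the 1700 overlapped a peak in at least 2 of the 3 cycling replicate lists, and 199 of the 1030 were set aside because they overlapped a peak of the pooled PSME3 list. The rule therefore used the position of a peak and its presence in the cycling lists, and what is given below on width, fold enrichment and replicate presence in cycling cells is a description without a test. The day 2 lists played no part in the choice.

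Trimethylation of lysine 4 of histone H3 (H3K4me3) is laid down mainly around the start sites of genes that are transcribed or poised, where proteins that read the mark recruit the transcription machinery. Enhancers, the regulatory elements that lie away from genes, typically carry the monomethylated form, and H3K4me3 away from genes can mark a start site that the annotation lacks or a strongly active enhancer. PSME3, the other protein profiled, is the subunit of a nuclear activator of the proteasome.

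The libraries were made by CUT&RUN, in which a nuclease tethered to an antibody releases the DNA around the target in cells that need not be fixed. All came from C2C12, a line of mouse myoblasts that stop dividing and fuse into myotubes when serum is withdrawn, so the samples represent 1 cell line and no tissue. Cycling cells were grown in 20% FBS and frozen unfixed in DMSO and FBS (3 replicates for each antibody). Day 2 cells were taken to confluency, given 2% horse serum and collected 48 h later. Their 4 preparations were fresh or frozen, and native or crosslinked with 0.1% formaldehyde, with 1 library per antibody and preparation. The frozen native preparation is the one handled like the cycling cells. The labels name no transgene or deletion. Day 2 values are given throughout in the order fresh native, fresh crosslinked, then frozen native, frozen crosslinked. Of the series, 7 IgG libraries were left aside.

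The cycling H3K4me3 replicate lists held 18077, 40999 and 19365 peaks, and the day 2 lists 14372, 20203, 15431 and 20245. Cycling replicate 2 stood apart, with the most peaks and a median width of 662 bp beside 1781 and 1784 bp in replicates 1 and 3. The member count, median width, clustering, day 2 shares, differences by position, day 2 rank and list shares are therefore also given without it. Read numbers are not part of the lists. The depth of each library is therefore unknown, and a missing peak means that the site did not pass the caller's threshold in that library, not that the mark was absent. As a check of the label, all 7 H3K4me3 lists had a peak within 1 kb of a boundary of Myod1, the myogenic master regulator, and of Des, the muscle intermediate filament gene desmin. None had one at the boundaries of Alb (serum albumin) or Cd3e (a T cell receptor subunit).

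The distal peaks were weak and narrow. Their median fold enrichment over the background estimated by the peak caller was 2.86 (quartiles 2.49 and 3.78, range 1.89 to 18.6), and their median width was 843 bp (quartiles 591 and 1184 bp, range 214 to 5813 bp). Within the pooled list they sat low, with a median percentile of fold enrichment of 36.0, and 129 of the 831 were above the median of the list. A fold enrichment of at least 5 was reached by 99 peaks (11.9%), and 56 (6.74%) were 2 kb or wider.

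Replicated peaks without PSME3 that lie closer to genes served as the frame of comparison. The 8167 such peaks within 1 kb of a gene boundary, where promoters lie, had a median fold enrichment of 12.2 and a median width of 2448 bp. The 3921 peaks inside genes and over 1 kb from a boundary had medians of 2.94 and 1094 bp, and the 1096 peaks outside genes but 1 to 10 kb away had medians of 2.88 and 850 bp. In strength and width the distal peaks thus lay beside those of the 1 to 10 kb flank and far below those at boundaries. Peaks inside genes had a like median fold enrichment but a longer upper tail, with 22.2% at a fold enrichment of 5 or more and 20.1% at 2 kb or wider. All 3 cycling replicates held 532 of the distal peaks (64.0%), beside 94.1% at boundaries, 67.0% inside genes and 61.8% in the 1 to 10 kb flank. Of the rest, 170 were in replicates 2 and 3, 72 in replicates 1 and 3 and 57 in replicates 1 and 2. Singly, replicate 1 held 661 of the peaks, replicate 2 held 759 and replicate 3 held 774, so that the smallest list was also the one that missed most. Without replicate 2, the rule left 604 peaks with a median width of 952 bp.

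**Figure D1:**
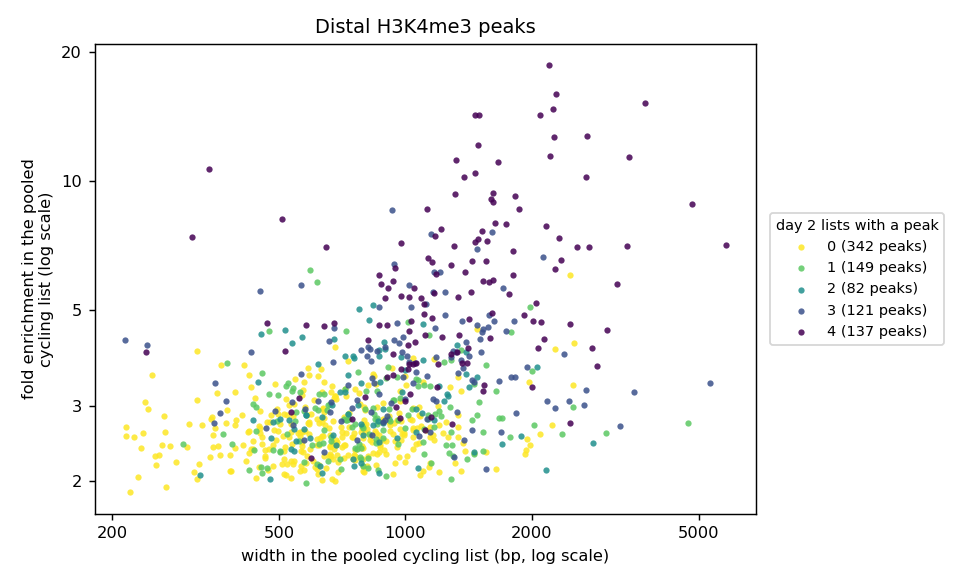
Each point is 1 of the 831 distal H3K4me3 peaks, placed by its width in bp and its fold enrichment in the pooled cycling list (both on log scales) and coloured by the number of day 2 lists, of 4, in which a peak overlapped it. The 137 peaks found in all 4 day 2 lists lie toward the upper right, with a median fold enrichment of 5.46, and the 342 found in none lie at the lower left, with a median of 2.56.

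Of the distal peaks, 50.5% lay 10 to 20 kb from the nearest gene and the rest farther away. The median gap to the nearest gene was 19.9 kb (quartiles 13.6 and 35.3 kb), with 420 peaks at 10 to 20 kb, 282 at 20 to 50 kb, 84 at 50 to 100 kb and 45 beyond 100 kb. Strength did not fall off with the gap, the median fold enrichment being 2.87, 2.82, 2.90 and 2.90 in these classes. The peak nearest to the limit inside it was chr8:83874326-83877071, 10.004 kb from the predicted gene Gm26721, with a fold enrichment of 7.02 and a peak in all 4 day 2 lists. The nearest outside it was chr19:12517962-12518783, 9.979 kb from Gm6545, with 7.81 and again 4 day 2 lists.

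The nearest gene was protein-coding for 311 peaks (37.4%), a long non-coding RNA gene for 310 (37.3%) and a pseudogene for 160 (19.3%). In the gene table, 43.8% of genes were protein-coding, 25.5% long non-coding and 19.9% pseudogenes. The median fold enrichment hardly moved with the kind of nearest gene, at 2.85, 2.86 and 2.94. To the nearest protein-coding gene the median gap was 41.3 kb, and 465 peaks (56.0%) had one within 50 kb. The 831 peaks had 725 different nearest protein-coding genes, 640 of them with 1 peak, 68 with 2 and 17 with 3 or more. Med13l, a subunit of the kinase module of Mediator, was among those with 4, and Myc, Klf4, Klf6, Gadd45g and Akap13 were among those with 3.

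Few distal peaks had another distal peak close by. The nearest other one was a median of 625 kb away, and 166 (20.0%) had one within 50 kb, forming 59 pairs, 12 groups of 3 and 3 groups of 4. Without replicate 2 this share was 13.1%. H3K4me3 of any position was closer, with another pooled peak at a median gap of 25.9 kb and within 50 kb of 542 distal peaks (65.2%). The nearest pooled PSME3 peak was a median of 110 kb away. The 289 distal peaks with no pooled H3K4me3 peak within 50 kb had a median fold enrichment of 3.02, and the 542 with one had 2.79. Relative to all pooled peaks of a chromosome, chromosome X held 31 distal peaks (5.92 per 100) and chromosome 7 held 32 (2.22 per 100). Chromosome Y, with 2 pooled peaks, held 0.

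Of the 3 groups of 4, the longest covered 95.8 kb on chr10:120571375-120667214, between Hmga2, which encodes a chromatin protein of growing and undifferentiated cells, and Msrb3, a methionine sulfoxide reductase gene. Its strongest peak, chr10:120665165-120667214, had fold enrichments of 6.75, 3.39 and 6.63 in cycling replicates 1 to 3. At day 2 it had 3.25, 3.98, 5.07 and 4.44. Among its neighbours, 2 had no day 2 peak and 1 had a peak in the fresh crosslinked list alone. The group at chr5:118293886-118340625 (46.7 kb, nearest protein-coding gene Spring1) held 1 peak found in all 4 day 2 lists, 1 found in 1 list and 2 found in none. The group at chr5:104374424-104408536 (34.1 kb) lay between Mepe and Spp1, genes of secreted proteins of the bone matrix. Of its 4 peaks, 3 had no day 2 peak, and the peak nearest to Spp1 had one in every preparation but fresh native. In these groups, 2, 1 and 2 of the 4 peaks met the rule only through cycling replicate 2, so none is a group of 4 without it.

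At day 2, fewer than 50% of the distal peaks had a counterpart in each single list. A peak was present at 153 of them in fresh native cells (18.4%, exact 95% interval 15.8 to 21.2%, covering counting error only), at 347 in the fresh crosslinked (41.8%, 38.4 to 45.2%), at 341 in the frozen native (41.0%, 37.7 to 44.5%) and at 383 in the frozen crosslinked (46.1%, 42.7 to 49.5%). Over all 23663 pooled cycling peaks the shares in the same order were 51.5%, 64.4%, 61.1% and 66.0%. The distal share was thus below that of all pooled peaks in each of the 4 preparations, with a mean of 36.8% ± 12.5 (SD, n = 4 preparations). This depended on the cycling replicates required. Without cycling replicate 2, the shares were 24.3%, 51.3%, 54.1% and 57.5% (mean 46.8%), and with all 3 replicates required they were 26.3%, 55.5%, 55.6% and 61.5%, so that over 50% were found again in 3 of the 4 lists. With stricter day 2 criteria the mean fell to 27.3% when day 2 peaks were held to a q-value limit of 0.01 and to 20.8% where 50% of a distal peak had to be covered.

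Counted over the preparations together, 342 distal peaks (41.2%) had no day 2 peak, 149 had one in 1 list, 82 in 2, 121 in 3 and 137 (16.5%) in all 4. Over all pooled peaks, 28.7% had none and 50.7% had all 4. Among the replicated peaks without PSME3, 37.6% of the 1 to 10 kb flank had none and 17.2% had all 4, near the distal shares. Inside genes these shares were 32.8% and 27.3%, and at boundaries 6.98% and 80.8%. The fresh native list was the sparsest and largely nested in the others. Between 92.8% and 94.8% of the distal peaks found there were also found in each other preparation, and 114 peaks were present everywhere except in it. In the fresh cells, crosslinking went with a share higher by 23.3 percentage points, and in frozen cells by 5.05 points. Freezing went with a share higher by 22.6 points in native and 4.33 points in crosslinked cells. With 1 library per preparation, handling and the individual library cannot be told apart.

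**Figure D2:**
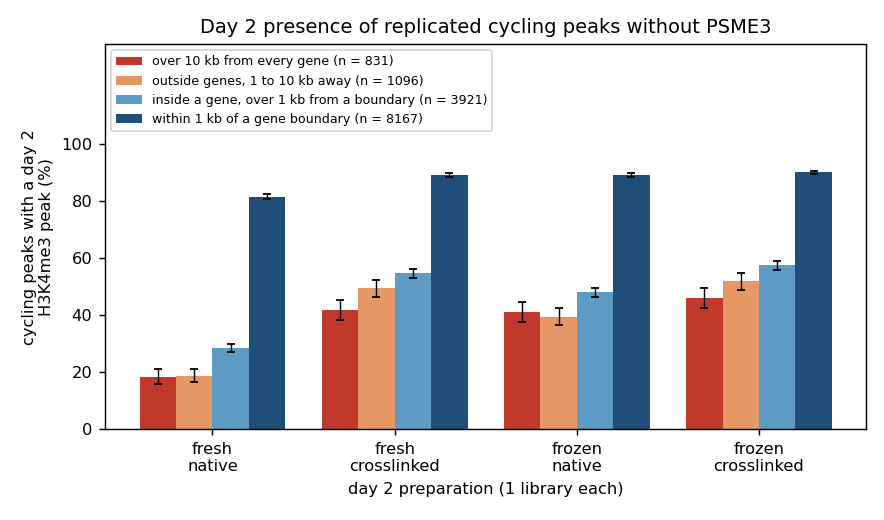
Bars show the percent of replicated cycling H3K4me3 peaks without PSME3 that had a day 2 peak, for each of the 4 preparations and 4 classes of position relative to genes, with exact 95% binomial intervals for counting error. The bars of the distal peaks reach 18.4%, 41.8%, 41.0% and 46.1%, below those of gene boundaries and gene bodies in each preparation and near those of the 1 to 10 kb flank.

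Peaks at gene boundaries were found again far more often, in 81.5%, 89.2%, 89.2% and 90.0% of cases in the 4 preparations. The distal share was lower by 50.6 ± 8.50 points (mean difference and SD over the 4 preparations) and lower in 4 of 4. With 4 preparations an exact two-sided sign-flip permutation test cannot go below p = 0.125, the value it gave here (0.188 after Benjamini-Hochberg adjustment over the 3 classes of position). Against peaks inside genes, found at 28.6%, 54.6%, 48.0% and 57.5% in the same order, the distal share was lower by 10.3 ± 2.53 points, again in 4 of 4 (exact p = 0.125, adjusted 0.188). Without cycling replicate 2 the differences were -44.1 points from boundaries and -14.0 points from gene bodies. Against the flank at 1 to 10 kb, found at 18.8%, 49.4%, 39.4% and 51.9%, the difference of -3.05 ± 4.37 points was smaller than its own spread. The distal share was below the flank in 3 of 4 preparations and 1.62 points above it in frozen native cells (exact p = 0.375, also after adjustment). This value rested on the cycling replicates, since it was -8.12 points without replicate 2, -4.63 points without replicate 3 and -6.30 points with all 3 required, each lower in 4 of 4 preparations (exact p = 0.125 each), and -2.86 points without replicate 1. Leaving out a day 2 library moved it to between -4.61 points (without frozen native) and -1.53 points (without fresh crosslinked). No comparison of position could pass a threshold of 0.05 with 4 preparations.

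The classes of position also differ in strength and width, which rise together. When the boundary peaks were averaged over 10 classes of fold enrichment in the proportions of the distal peaks, the difference shrank from -50.6 to -6.83 ± 0.723 points, still lower in 4 of 4 preparations (exact p = 0.125). Averaged in the same way over 10 classes of width it was -11.1 ± 1.34 points. For peaks inside genes the values were -5.40 ± 3.27 points by strength and 0.826 ± 2.96 points by width (exact p = 0.75). By width, the distal share was higher in 2 preparations and lower in the other 2. For the flank they were -2.89 ± 4.27 and -2.86 ± 4.42 points. Without cycling replicate 2, the differences averaged over strength and over width were -6.01 and -11.1 points from boundaries, -5.78 and -0.405 points from gene bodies, and -4.41 and -6.80 points from the flank. Strength was not made equal within a class of fold enrichment. Among peaks from 4.08 to 18.6, the median was 5.51 at distal sites, 12.8 at boundaries, 7.90 inside genes and 5.48 in the flank.

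Among the distal peaks themselves, the number of day 2 lists climbed with strength in cycling cells. Peaks found in 0, 1, 2, 3 and 4 day 2 lists had median fold enrichments of 2.56, 2.78, 2.92, 3.67 and 5.46. Their median widths were 667, 820, 783, 1061 and 1338 bp, which did not climb at every step. The distal peaks were also divided by fold enrichment into 5 equal groups. In the weakest group, 10.7% had a day 2 peak on average over the preparations, in the next groups 15.2%, 29.1% and 44.1%, and in the strongest 84.7%. All 4 lists held 0.602% of the weakest group and 62.3% of the strongest, and no list held 70.5% of the weakest and 2.40% of the strongest. Among the 99 peaks with a fold enrichment of at least 5, 76 were in all 4 day 2 lists and 1 was in none. Replicate presence moved the same way, with 133 of the 532 peaks of all 3 cycling replicates in all 4 day 2 lists (25.0%) but 4 of the 299 peaks of 2 replicates (1.34%). All 4 lists held 16.3% of the peaks within 50 kb of another distal peak and 16.5% of those without one. By distance from genes, all 4 lists held 19.0% of peaks at 10 to 20 kb, 13.5% at 20 to 50 kb, 16.7% at 50 to 100 kb and 11.1% beyond 100 kb, and no list held 40.0%, 45.7%, 38.1% and 28.9% of the same classes, so that the shares gave no common direction with distance.

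**Figure D3:**
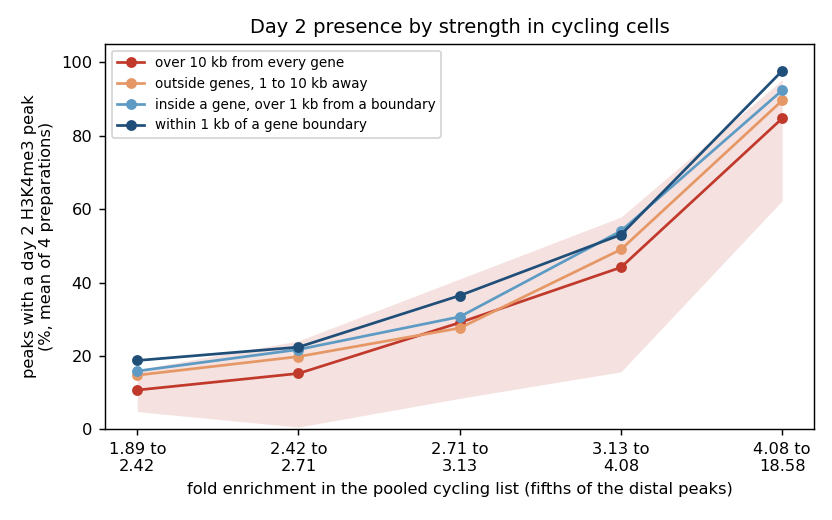
The percent of peaks with a day 2 peak (mean of the 4 preparations) is plotted for 5 equal groups of the distal peaks by fold enrichment in the pooled cycling list, with peaks of the 3 other classes of position grouped at the same limits (1.89 to 18.6) and those outside them left out. The shaded band spans the 4 preparations for distal peaks, whose mean climbs from 10.7% to 84.7%, while that of gene boundaries climbs from 18.8% to 97.7%. In the strongest group the median fold enrichment was 5.51 for distal peaks and 12.8 at boundaries, so strength is not equal there. The flank, with a median of 5.48, reached 89.6%.

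Where a day 2 peak was present at a distal site, it ranked low in its own list. The median percentile of fold enrichment was 20.5, 33.4, 18.6 and 34.1 in the 4 preparations, beside 50.2, 55.8, 46.8 and 56.5 for day 2 peaks at the gene-near peaks. The distal median was lower by 25.7 ± 3.83 percentile points, in 4 of 4 preparations (p = 0.125 by the exact permutation of signs, its lower limit). Without cycling replicate 2 the difference was -25.8 points. Of the 13184 gene-near peaks, 8167 lay at gene boundaries, where the median fold enrichment in cycling cells was 12.2, beside 2.86 for the distal peaks. Rank was not compared by class of position or at like strength, so it is not shown to be particular to distal sites. The day 2 peaks at distal sites had median widths of 458 bp, 511 bp, 663 bp and 570 bp in the same order, beside 605, 741 and 646 bp for the replicate peaks of cycling cells. The day 2 widths rest on 156, 363, 343 and 388 peaks at the sites found again, the cycling widths on 666, 782 and 780. They cover unlike sets of sites and do not measure a change in width.

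The whole lists were also compared, counting every H3K4me3 peak over 10 kb from genes and not only the 831. Such peaks made up 4.90%, 7.25% and 5.76% of the cycling lists (mean 5.97% ± 1.19, n = 3). At day 2 they made up 3.79%, 4.20%, 3.36% and 4.20% (mean 3.89% ± 0.400, n = 4). The groups did not overlap, and the difference of 2.08 points had an exact two-sided permutation p of 0.0571, the smallest that 3 against 4 libraries allow. The 4 day 2 libraries differ in handling, and frozen native (3.36%) is the one handled like the cycling cells. In the others, day and handling cannot be told apart. Without cycling replicate 2 the difference was 1.44 points (exact permutation p = 0.133, the smallest for 2 against 4). For peaks over 20 kb from genes it was 0.956 points (exact permutation p = 0.0571) and over 50 kb it was 0.162 points (exact permutation p = 0.286), so that the groups overlapped there. The difference also depended on list length. The 14372 peaks of smallest q-value were then taken from each list. The means were 2.87% ± 0.164 in cycling and 2.91% ± 0.627 in day 2 lists (exact permutation p = 0.971). This is the length of the shortest list, fresh native, which was therefore not shortened and kept its 3.79%, the highest value. The shortened day 2 lists gave 2.33% (fresh crosslinked), 2.90% (frozen native) and 2.63% (frozen crosslinked). Cycling replicates 1 to 3 gave 2.93%, 2.69% and 3.00%.

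**Figure D4:**
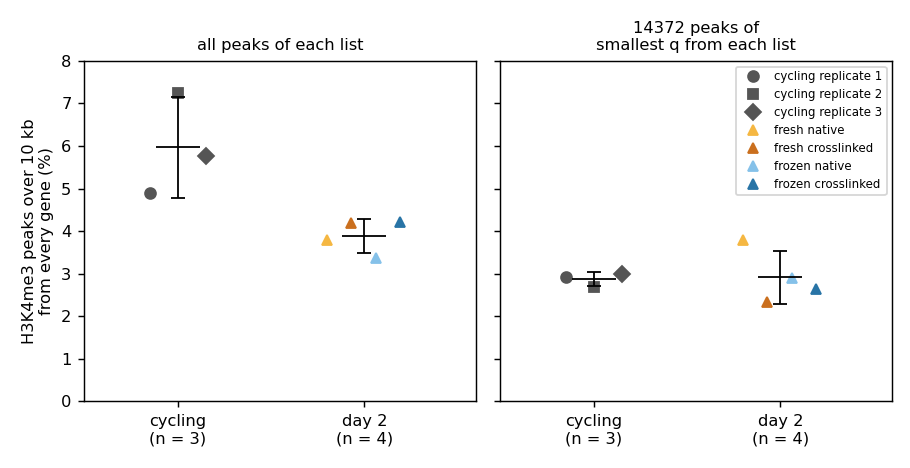
Points show the percent of all H3K4me3 peaks of a library that lie over 10 kb from every gene, for 3 cycling and 4 day 2 libraries, with horizontal bars at the group means and error bars of 1 SD. With all peaks, the cycling libraries (4.90% to 7.25%) lie above the day 2 libraries (3.36% to 4.20%), and with 14372 peaks from each list the groups overlap.

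The strongest distal peaks reached the level of gene boundaries. The highest was chr10:79416136-79418335, 19.4 kb from the vomeronasal receptor gene Vmn2r82. Its fold enrichments were 22.9, 12.3 and 26.0 in cycling replicates 1 to 3, and 7.88, 10.8, 20.3 and 14.4 at day 2. It was thus present in all 7 lists. Its values were highest in cycling replicates 1 and 3 and in frozen native cells, but separately called libraries have no common scale of fold enrichment. The next, chr7:41598590-41600880 (pooled fold enrichment 15.9), was nearest to the predicted gene Gm51480 and 32.7 kb from the zinc finger gene Zfp788. After it came chr16:61336547-61340273 (15.2), 36.8 kb from Gm9027 and 726 kb from Epha6, an ephrin receptor gene. The others among the 5 strongest were chr2:92058224-92060466 (14.7), 34.1 kb from Creb3l1, a transcription factor gene of the secretory pathway, and chr6:128760158-128761625 (14.2), 16.9 kb from the lectin-like receptor gene Klrb1c. All 5 had a peak in all 4 day 2 lists.

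By rank within the day 2 lists, the leading peaks included those near Vmn2r82 and Gm9027 and 3 others. One lay 32.3 kb from Pum2, which encodes an RNA-binding repressor of translation (chr12:8639733-8641825), with fold enrichments of 14.0, 7.69 and 23.2 in cycling cells and 6.38, 8.82, 15.5 and 12.8 at day 2 in the same order. Another lay at chr10:97312762-97314249, 165 kb from Dcn, the gene of the matrix proteoglycan decorin, with 20.7, 7.69 and 17.5 in cycling cells and 8.08, 7.28, 13.3 and 10.6 at day 2. At both sites cycling replicate 2 had the lowest value of the cycling libraries and frozen native the highest of day 2, again without a common scale. The last, chr2:145674266-145676981, lay 32.1 kb from Slc24a3, a sodium, calcium and potassium exchanger gene.

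The widest distal peak covered 5813 bp at chr4:99158329-99164141, 25.0 kb from Atg4c, a gene of autophagy, and was found in all 4 day 2 lists. The next was 5313 bp wide at chr11:70196501-70201813, 11.9 kb from the transporter gene Slc16a11, and was found in every day 2 list except fresh native. A peak of 4829 bp at chr16:50751558-50756386, 18.8 kb from Dubr, a long non-coding RNA gene, was in all 4 lists. Width alone did not go with day 2 presence at chr19:53409800-53414523, which was 4724 bp wide and 19.1 kb from the splicing factor gene Smndc1 but had a fold enrichment of 2.74 and a day 2 peak in frozen crosslinked cells alone. Of the 56 peaks of 2 kb or wider, 31 were in all 4 day 2 lists and 6 in none.

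The most remote peak, chr15:15090043-15090788, lay 623 kb from any gene and 1638 kb from the nearest protein-coding one, the cadherin gene Cdh9. Its fold enrichments were 4.01, 2.70 and 3.30 in cycling cells and 2.61, 2.62, 4.43 and 4.11 in the 4 day 2 preparations. It was therefore a weak peak present in every list. Of the 4 next most remote, between 246 and 404 kb from any gene, those on chromosomes 18 and 12 were in 3 day 2 lists each and those on chromosomes 8 and 17 in none.

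The strongest peaks without any day 2 counterpart were much weaker than the strongest that had one. The first was chr8:54439121-54441588, 78.8 kb from the signal peptidase gene Spcs3, with fold enrichments of 8.75, 3.70 and 5.07 in cycling cells and a pooled value of 6.04. It was the only 1 of the 99 peaks with a pooled value of at least 5 to be missing from all 4 lists. The others had pooled values of 4.53 (chr16:50577337-50578821, 11.0 kb from Ccdc54), 4.20 (chr16:86345648-86348176, 445 kb from the matrix protease gene Adamts5), 4.12 (chr4:80882674-80883353, 27.3 kb from Lurap1l) and 4.08 (chr4:137837805-137840077, 22.2 kb from Ece1, which encodes an endothelin-converting enzyme). All 5 were present in all 3 cycling replicates.

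Lists of genes fixed by function, 6 in all, were then looked up among the nearest protein-coding genes. They were the nearest to 40 distal peaks (4.81%) and to 2.01% of the gene-near peaks. Of these 40, 7 (17.5%) were in all 4 day 2 lists and 21 (52.5%) in none, beside 16.5% and 41.2% of all distal peaks, with which the counts below are to be read. Nearness is not evidence that a peak acts on a gene, and no list was tested.

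Myogenic regulators were nearest to 6 distal peaks, of which 1 was in all 4 day 2 lists and 3 in none. The strongest, chr10:23076677-23077836, lay 25.1 kb from Eya4, a transcriptional co-activator of developing muscle, with fold enrichments of 7.53, 3.54 and 7.20 in cycling cells and 2.93, 3.51, 4.86 and 4.91 at day 2. A second peak, 98.4 kb from Eya4, was missing from fresh native cells alone. Near Lbx1, a homeobox gene of migrating muscle precursors, a peak 11.2 kb away was found in the fresh crosslinked and frozen native lists. The peak 22.9 kb from Myod1 (chr7:46353152-46353568) was 417 bp wide, had fold enrichments of 2.56 and 2.58 in cycling replicates 2 and 3 and none in replicate 1, and had no day 2 peak. It was thus at the weak end of the distal peaks, although Myod1 itself had a boundary peak in all 7 lists. Among genes of muscle structure only Des was nearest to a distal peak, 12.5 kb away, found in the fresh and frozen crosslinked lists and in neither native one.

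Growth factor genes were nearest to 5 peaks, 1 of them in all 4 day 2 lists and 3 in none. The peak in all 4 was chr5:75315838-75316856, 118 kb from Pdgfra, the receptor of a growth factor of mesenchymal cells. Its fold enrichments were 3.31, 3.12 and 3.99 in cycling cells and 3.14, 4.81, 6.41 and 4.33 at day 2, so that 3 of 4 day 2 values lay above all cycling values. Fold enrichments of separately called libraries are not on a common scale, and this difference was not tested. A peak 82.5 kb from Hgf, the ligand of the receptor Met, was in 3 day 2 lists, and those nearest to Fst (the myostatin antagonist follistatin), Ccn1 and Tgfb2 were in none and lacked a peak in cycling replicate 1.

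Developmental transcription factors, the longest list with 52 genes beside 19 to 34 in the others, were nearest to 17 distal peaks at 13 genes and to 107 gene-near peaks. Of the 17, 1 was in all 4 day 2 lists and 10 in none. The 1 was chr4:55650715-55652883, 118 kb from Klf4, the gene of a zinc finger transcription factor, with fold enrichments of 9.28, 6.22 and 10.9 in cycling cells and 4.43, 5.65, 9.29 and 6.29 at day 2. Peaks 19.7 kb from Id3, an inhibitor of the myogenic helix-loop-helix factors, and 180 kb from Runx1 were in 2 day 2 lists each. A peak 33.8 kb from Foxd1 was in 1, and a peak 797 kb from Nr2f2 was in none.

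Genes of the immediate early response and the cell cycle were nearest to 6 peaks, 2 of them in all 4 day 2 lists and 4 in none. The peak 16.0 kb from Fosb, a subunit of the AP-1 factor (chr7:19326164-19327778), had fold enrichments of 9.89, 4.31 and 9.09 in cycling cells and 5.26, 7.06, 7.77 and 7.82 at day 2. Near the non-coding gene Pvt1, which follows Myc on chromosome 15, a peak at chr15:62286365-62287560 was present in cycling cells at 5.20, 2.97 and 3.49 and in no day 2 list. Farther from Pvt1, chr15:62328169-62329459 was present in all 7 lists, at 3.86, 3.00 and 3.18 in cycling and 2.79, 3.46, 4.40 and 3.62 in day 2 cells. A weaker distal peak between them, chr15:62321001-62321230, had a pooled fold enrichment of 2.05 and was in no day 2 list. It is outside the rule for named peaks and was added after its values were seen. Peaks 24.4 kb from Ccnd1 and 114 kb from Ccnd2, genes of G1 cyclins, were in no day 2 list.

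Matrix and adhesion genes were nearest to 5 peaks, 2 of them in all 4 day 2 lists and 1 in none. The 2 lay 122 kb from Col5a2 and 15.1 kb from Col1a2, genes of collagen chains. The Col1a2 peak (chr6:4488077-4490539, 2463 bp) had fold enrichments of 2.94, 3.05 and 2.75 in cycling cells and 2.70, 3.00, 4.15 and 3.20 at day 2. A peak 148 kb from Fn1, the fibronectin gene, was found in both crosslinked lists and in neither native one, and a peak 16.2 kb from the integrin gene Itga5 in the fresh crosslinked list alone.

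**Figure D5:**
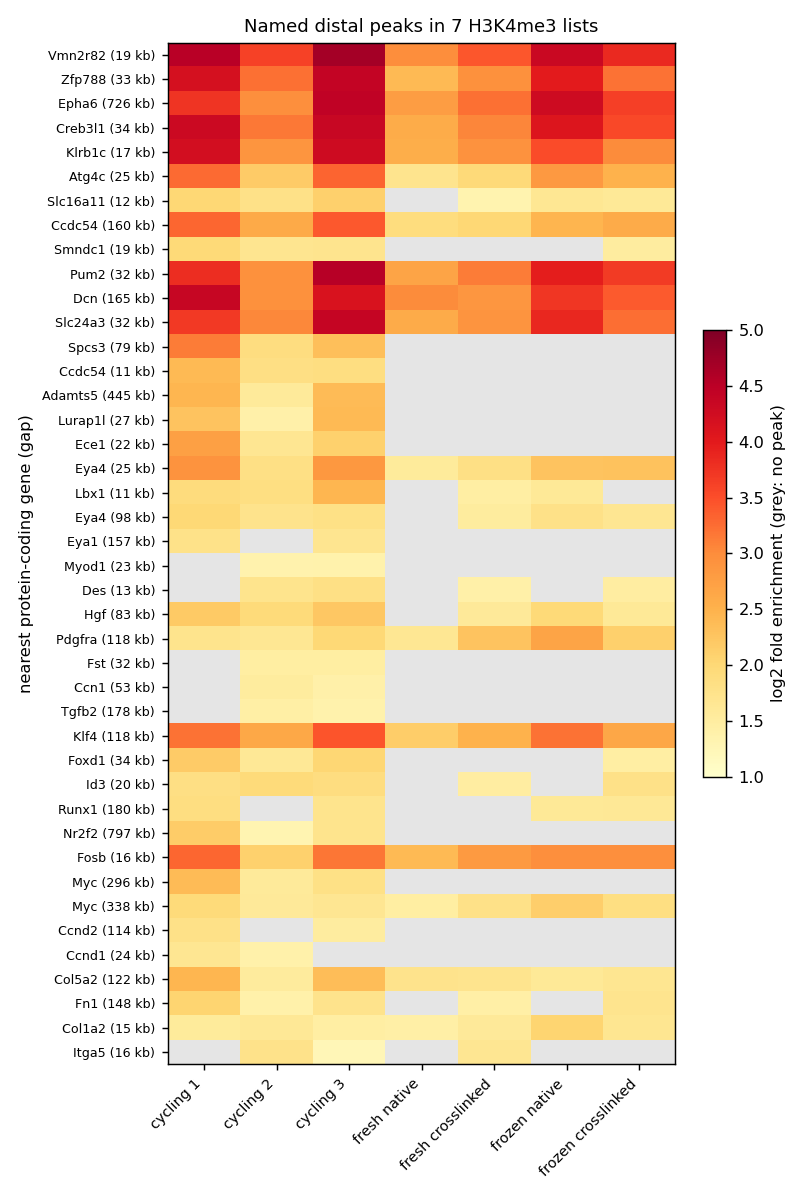
Rows are distal peaks named by their nearest protein-coding gene with the gap in kb, columns the 3 cycling and 4 day 2 H3K4me3 libraries, and colour the log2 fold enrichment of the library's own peak there (grey where there was none). The peaks near Vmn2r82, Pum2 and Dcn are filled in all 7 libraries, and those near Spcs3, Lurap1l and Ece1 are filled in the cycling libraries alone.

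In single libraries, a PSME3 peak overlapped 8 distal peaks in cycling replicate 1 (0.963%), 0 in replicate 2 and 7 in replicate 3 (0.842%), beside 1.13%, 0.273% and 2.63% of the gene-near peaks, and no site had one in 2 replicates. The 4 day 2 PSME3 lists held 18 to 186 peaks each, and none lay at a distal site (0 of 831, where 3 counts would be 0.361%). At the 13184 gene-near peaks the share was 0.0228% in frozen native cells and 0% in the others, so the distal count does not set these sites apart. The pooled PSME3 list was part of the rule, and the single lists are not independent of it.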

How the data were processed

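CUT&RUN was performed by the authors on C2C12 cells, and 14 of the 21 libraries were used here (7 H3K4me3, 7 PSME3). Per the labels, reads were trimmed with Trim Galore, aligned with Bowtie2 to mm10 and called with MACS2. Versions and options are not given in the sources used here. The deposited lists have the layout of broad peaks and give, as the authors' caller wrote them, each peak's enrichment as a fold (a ratio over the caller's background) and its p-value and q-value in −log10 form. Every listed peak had a q-value under 0.1. The authors' pooled lists combine the cycling replicates, which the paper shows in aggregate. How they were combined was not checked here. The replicates are biological per the study's methods, p-values measure the spread between libraries alone, and no read numbers were held, so the depth is unknown.

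Overlaps (at least 1 bp), gaps, exact Clopper-Pearson intervals and exact permutation tests were computed with Python 3.11.15, numpy 2.4.6, pandas 2.3.3 and scipy 1.17.1 after the code was tested on simulated data. Genes were those of a RefSeq table of GRCm38.p6 (49997 genes, 21900 protein-coding), which gives no strand, so distances were taken to gene bodies. Genes of other annotations were not used here, and 8 replicated peaks without PSME3 on unplaced sequences without genes were left out. Coordinates are those of the lists, counted from 1. Sequence features were not run because no genome was used here.

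Named peaks were the 5 strongest, 5 widest, 5 most remote, 5 best ranked in all 4 day 2 lists and 5 strongest in none, the 3 largest clusters, those beside the 10 kb limit, and up to 5 for each list of genes. The peaks and gene lists were chosen with earlier results of these data known. Alternatives covered overlap, replicates, distance, gene kind, q-value, strength, width, joining distance and list length.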

Additional observations from a re-analysis of the deposited data

Results flagged for a closer look

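The distal peaks were required to be free of the pooled cycling PSME3 peaks, yet 8 of the 831 overlapped a PSME3 peak in the list of cycling replicate 1 and 7 in that of replicate 3, beside 0 in replicate 2 and 0 in each of the 4 day 2 lists. These counts are given because the PSME3 libraries lie outside the H3K4me3 comparisons. The day 2 PSME3 lists held 18 to 186 peaks each, beside 1200, 776 and 3070 in cycling replicates 1 to 3. At the gene-near peaks the day 2 PSME3 share was 0.0228% in frozen native cells and 0% in the others. The 0 at day 2 therefore does not set the distal sites apart. All 15 sites had their PSME3 peak in a single replicate. At the gene-near peaks chosen in the same way, the shares with such a single-library peak were 1.13%, 0.273% and 2.63% in replicates 1 to 3, beside 0.963%, 0% and 0.842% at the distal peaks. The reason was not tested.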

How the results depend on the processing

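The share of distal peaks found at day 2 was below that of all gene-near peaks and of boundary peaks under all 27 alternatives tried (-38.4 to -5.21 and -56.8 to -6.01 points), and the low rank at day 2 held under all 8 (-26.8 to -24.3 percentile points). None of the 8 for rank averaged over strength or split the gene-near peaks by position. With 4 preparations these tests cannot pass 0.05, so p-values say nothing on stability. The difference from the flank changed sign for peaks over 50 kb from genes (0.217 points, exact permutation p = 0.875) and when 50% of a peak had to be covered at day 2 (0.912, exact permutation p = 0.75). That from peaks inside genes changed sign over classes of width (0.826). It also did so without cycling replicate 1 (1.05) or 3 (0.445), but not without replicate 2 (-0.405). All combinations of classes with a left-out replicate, and the rank without a cycling replicate, were chosen after seeing the data. The cycling against day 2 difference of list shares changed sign with equal list lengths (-0.0406), where the fresh native list was not shortened. The cause of these changes was not tested. Leaving out 1 cycling replicate moved the flank difference to between -8.12 and -2.86 points. The number of distal peaks was 532 with all 3 replicates, 1284, 411 and 129 beyond 5, 20 and 50 kb, 1984 with protein-coding genes alone, and 589 to 702 leaving out 1 replicate. Their mean day 2 share was 49.7% with all 3 replicates, 20.8% with 50% covered, and 40.4% to 46.8% leaving out 1 replicate. The median width was 1005 bp with all 3 replicates and 899 to 959 bp leaving out 1. The share within 50 kb of another distal peak was 15.8% with 50% covered in replicates, 13.7% with all 3 replicates, 25.0%, 13.9% and 10.1% beyond 5, 20 and 50 kb, 36.6% with protein-coding genes alone, and 13.1% to 19.8% leaving out 1 replicate. Joining within 12.5 and 100 kb gave 12.8% and 23.9%. The rules on replicates, distance and gene kind change the number of peaks by construction. Why the shares and widths moved was not tested. No paired analysis was possible because cycling and day 2 libraries share no replicate numbers that match. This concerns cycling against day 2 alone, since comparisons of position were differences within each preparation.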
